A study of Homo sapiens with 9 samples.

Results

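The kindlins and talins are proteins that bind the cytoplasmic tails of integrin beta subunits. Of the 22290 genes with values in this series 7 are described here: the kindlin genes FERMT1, FERMT2 and FERMT3, the talin genes TLN1 and TLN2, and the partners ILK and PXN. The members were chosen by family, but with their values in view: FERMT1 and FERMT3 were known to be far lower in the libraries labelled TRAP-1 overexpression (OE) than in the parental libraries. All 7 had values. The differences between the libraries labelled OE and the other groups are therefore given for the members as a description, without a test.

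RNA of whole cells was sequenced in 9 libraries of the human neuroblastoma line IMR-32 to find genes that change with the level of the mitochondrial chaperone TRAP-1. The libraries form 3 groups of 3: parental (PAR, genotype WT), knockdown of TRAP-1 (KD) and OE. How the KD and OE cells were made is not given in the sources used here. The RNA was isolated in triplicate, and nothing says that the triplicates came from separate cultures, so the p-values measure only the spread between these libraries, which may be technical. The values are regularized log2 values (rlog): read counts scaled for library size, put on a log2 scale and pulled toward the mean of each gene, more so where counts are low. A difference of 1 is a factor of 2 on this scale, shrinkage makes differences of genes with few reads smaller, and percentages of the parental level below are those of the shrunken values. The reads obtained per library cannot be told from them.

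Integrins hold cells to the extracellular matrix, and they are switched to the binding state when a talin and a kindlin attach to the tail of the beta subunit. Kindlin-1 (FERMT1) is best known from epithelia, kindlin-2 (FERMT2) is made in most adherent tissues and kindlin-3 (FERMT3) belongs to blood cells. Talins couple the integrin to actin, and kindlins bring in paxillin (PXN) and the complex of ILK, PINCH and parvin.

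TRAP1 was examined first, as a check of the labels. Its rlog value was 10.67, 10.66 and 10.65 in the parental libraries, 10.79, 10.79 and 10.83 in the libraries labelled KD and 10.67, 10.63 and 10.74 in those labelled OE. The libraries labelled KD thus held more TRAP1 RNA than all parental libraries (difference 0.14, SE 0.025, adjusted p = 1.76e-05 from limma), against the label. The difference of the libraries labelled OE was 0.018 (95% confidence interval -0.033 to 0.069, adjusted p = 0.643), and their values overlapped with the parental ones. After the median of each 20-Mb stretch of chromosome was removed the OE difference was 0.068 (adjusted p = 0.0212), and without OE replicate 3 it was -0.012 (adjusted p = 0.782). Other annotated genes share 28.5% of the exonic bases of TRAP1. KD and OE stand below for the labels of the libraries and not for a level of TRAP1.

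The label of the cells was also compared with marker genes. Of 16 markers of sympathetic neuroblasts 11 had values, and DBH, DDC, STMN2 and ELAVL4 were among those not analysed here. MYCN, which is amplified in the IMR-32 line, had a mean rlog of 2.52 in PAR, 2.60 in KD and 2.51 in OE, the scale of 5.72, 6.05 and 5.70 size-scaled reads per library. PHOX2A lay at 1.33, 1.34 and 1.35 and TH at 2.84, 2.66 and 2.69. Other markers were well above the floor of the table. ISL1 had the highest mean rlog of the list, at 9.37, 9.20 and 9.31. In PAR GATA2 lay at 9.27, GATA3 at 7.25, HAND2 at 6.36, SYP at 6.35 and CHGB at 5.87. The list was thus mixed, with 5 of the 11 under a mean rlog of 5, and the cells are called by their label.

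FERMT1 (ENSG00000101311; GRCh38 chr20:6074845-6123214, minus strand) shares none of its exonic bases with another annotated gene. Its rlog value was 11.56, 11.55 and 11.54 in the parental libraries, 10.69, 10.67 and 10.68 in the libraries labelled KD and 10.50, 10.56 and 10.53 in those labelled OE. The 3 groups did not overlap, with PAR highest, KD next and OE lowest. FERMT1 fell in KD by 0.87 (SE 0.022, 95% confidence interval -0.91 to -0.82, adjusted p = 2.36e-25 from limma), to 54.8% of the parental level on the scale of reads. The OE mean was 10.53 ± 0.031 (SD, n = 3) against 11.55 ± 0.012 (SD, n = 3) in PAR, a difference of -1.02 or 49.2% of parental. KD and OE are compared with the same parental libraries, so their differences are not independent of each other, and the KD difference is not independent of the choice of members. As these are bulk libraries, fewer cells that make a kindlin and less of its RNA per cell cannot be told apart.

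FERMT3 (ENSG00000149781; GRCh38 chr11:64205926-64223896, plus strand), the kindlin of blood cells, gave rlog values of 7.46, 7.41 and 7.37 in PAR, 6.29, 6.26 and 6.32 in KD and 6.37, 6.36 and 6.43 in OE. All parental libraries lay about 1 unit above all others, and here KD and not OE was lowest, by a narrow gap. FERMT3 fell in KD (difference -1.12, SE 0.044, 95% confidence interval -1.21 to -1.03, adjusted p = 2.83e-20 from limma), which left 46.1% of the parental level. Of the 22290 genes 54 had a lower KD difference than FERMT3 and 133 a lower one than FERMT1, places that the choice of members favours through the shared parental libraries. The OE mean was 6.39 ± 0.036 (SD, n = 3) against 7.41 ± 0.044 (SD, n = 3) in PAR, a difference of -1.02. The rlog scale reduces differences more where reads are few, so the places of FERMT1 and FERMT3 among all genes, and their differences beside each other, are only a description.

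FERMT2 (ENSG00000073712; GRCh38 chr14:52857268-52952435, minus strand), the widely expressed kindlin, lay at nearly the same rlog level as FERMT3 in PAR but did not share its pattern. Its values were 7.38, 7.30 and 7.46 in PAR, 7.42, 7.35 and 7.49 in KD and 7.27, 7.30 and 7.37 in OE. The 3 groups overlapped. The KD difference was 0.039 (SE 0.047, 95% confidence interval -0.057 to 0.13, adjusted p = 0.520 from limma), and the OE difference was -0.069 with SDs of 0.054 in OE and 0.082 in PAR, and from -0.11 to -0.029 with 1 library left out. The interval leaves room for a small change in KD, well short of the falls of the other kindlins.

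**Figure D1:**
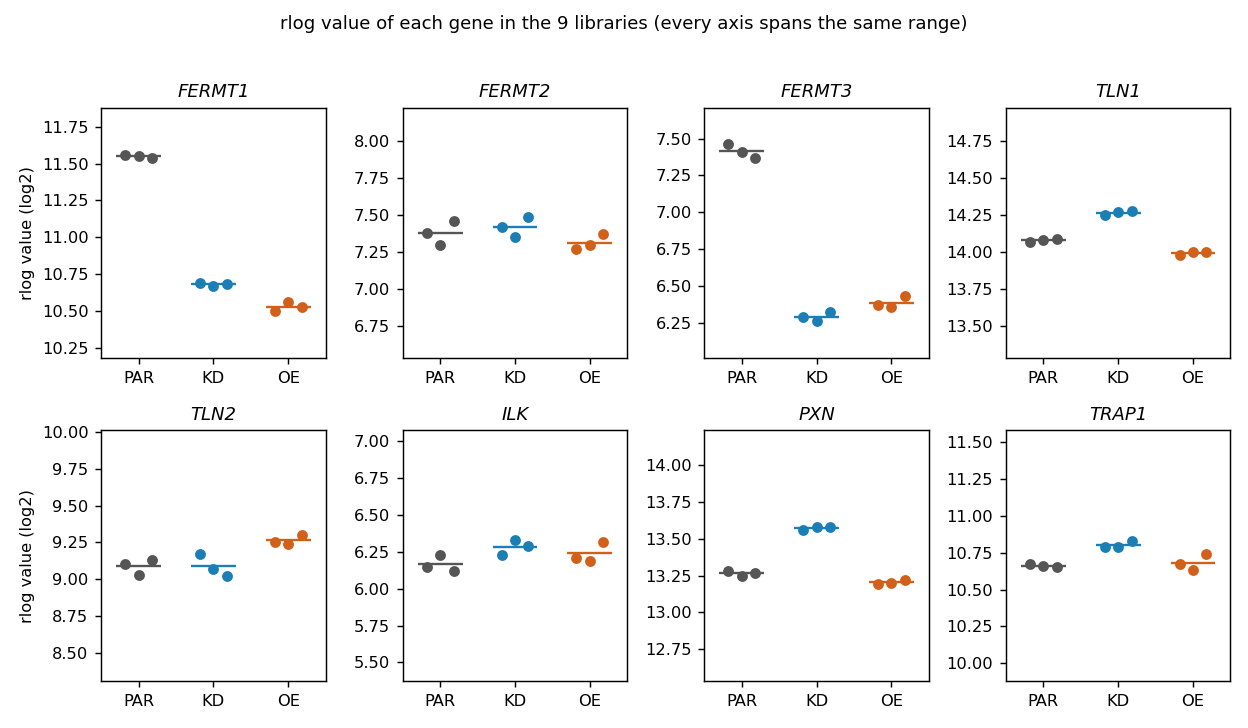
rlog values (log2, y axis) of the 7 members and TRAP1 in the 9 libraries, grouped as PAR, KD and OE on the x axis; points are libraries, lines are group means, and every axis spans the same range. FERMT1 and FERMT3 are lower in all KD and OE libraries than in PAR, FERMT2 overlaps between groups, and PXN and TLN1 are highest in KD.

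To see what these differences did to the makeup of the family, the rlog values were taken back to the scale of reads and divided by gene length in kb, since levels of different genes can be compared only per length. With the length of all annotated exons, FERMT1 made up 89.5% ± 0.27 (SD, n = 3) of the summed kindlin level in PAR, 85.6% ± 0.49 in KD and 84.7% ± 0.45 in OE. FERMT2 went the other way, with 6.02% ± 0.34 in PAR, 10.8% ± 0.45 in KD and 11.0% ± 0.34 in OE. FERMT3 held 4.47% ± 0.11, 3.59% ± 0.042 and 4.23% ± 0.12. FERMT1 therefore remained the main kindlin RNA in all groups, and the share of FERMT2 grew while its own rlog values overlapped.

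The summed kindlin level per kb was 328 ± 2.74 in PAR, 188 ± 2.13 in KD (57.3% of PAR) and 170 ± 3.44 in OE (52.0% of PAR), with no overlap between the groups. FERMT1 is most of this sum, and it was chosen with its low OE values in view. The OE total and the larger share of FERMT2 in OE largely follow the fall of FERMT1 and are only a description. FERMT1 was 14.9 ± 0.87 times as abundant per kb as FERMT2 in PAR, 7.94 ± 0.38 times in KD and 7.68 ± 0.27 times in OE. The annotated exons of FERMT3 add up to 11636 bases, far more than the 2499 bases of its MANE Select transcript, so the shares were also computed with the MANE Select lengths, an alternative chosen after seeing the data. FERMT1 then held 84.5% in PAR, 80.9% in KD and 79.5% in OE, FERMT2 6.63%, 11.9% and 12.1%, and FERMT3 8.89%, 7.17% and 8.37%, about 2 times its shares with all exons. The total was 57.2% and 52.3% of PAR.

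The order of the minor kindlins depended on the length used. With all exons FERMT2 lay above FERMT3 in PAR (ratio 1.35 ± 0.10), and with the MANE Select lengths it lay below (0.746 ± 0.057). In KD and OE the ratio of FERMT2 to FERMT3 was above 1 with either length, at 3.0 ± 0.093 and 2.61 ± 0.048 with all exons and 1.66 ± 0.052 and 1.44 ± 0.026 with MANE Select. The ratio was higher in KD and OE than in PAR on both scales, and only its position relative to 1 in PAR changed with the length.

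**Figure D2:**
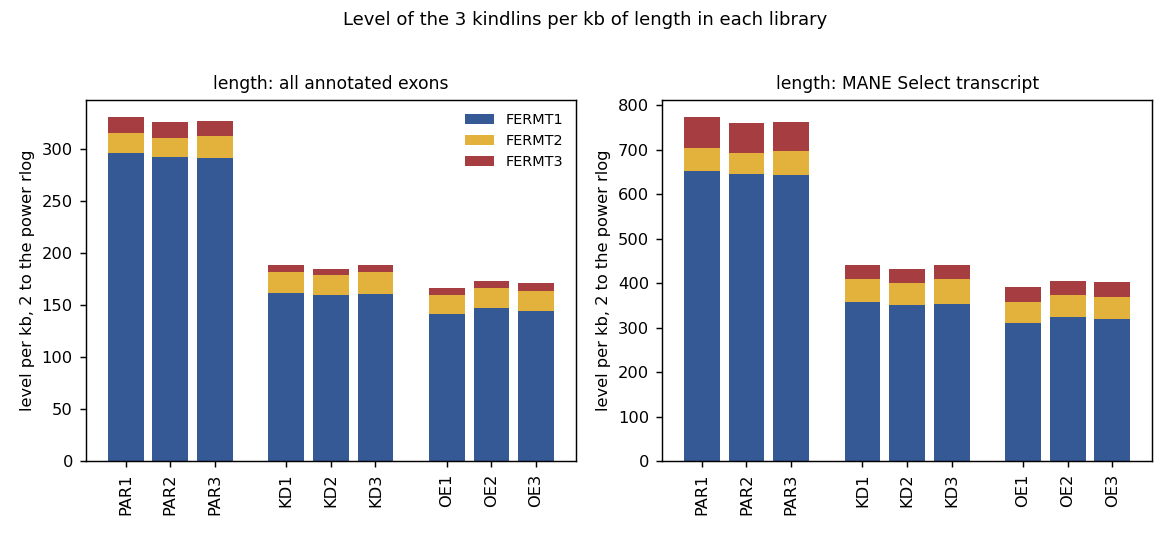
Level of the 3 kindlins per kb in each library (y axis, 2 to the power rlog divided by length; bars stacked from 0), with the length of all annotated exons on the left and of the MANE Select transcript on the right. The totals drop from PAR to KD and OE, mostly through FERMT1, and the share of FERMT2 is larger in KD and OE.

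TLN1 (ENSG00000137076; GRCh38 chr9:35696948-35732195, minus strand) encodes the widespread talin. It had rlog values of 14.07, 14.08 and 14.09 in PAR, 14.25, 14.27 and 14.28 in KD and 13.98, 14.00 and 14.00 in OE. The groups were ordered KD above PAR above OE with no overlap, an order that neither lowered kindlin followed. TLN1 rose in KD by 0.19 (SE 0.012, adjusted p = 1.49e-14 from limma), which is 114% of the parental level. The OE difference was -0.088, and it turned to 0.018 once the median of each 20-Mb stretch was removed.

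TLN2 (ENSG00000171914; GRCh38 chr15:62390526-62844631, plus strand), the second talin, is known from muscle and brain. Its rlog values were 9.10, 9.03 and 9.13 in PAR, 9.17, 9.07 and 9.02 in KD and 9.25, 9.24 and 9.30 in OE. PAR and KD overlapped (difference 0.00035, 95% confidence interval -0.073 to 0.074, adjusted p = 0.995), and the sign of this difference changed between alternatives. All OE libraries lay above all PAR libraries, with a difference of 0.18 and SDs of 0.032 and 0.053. Per kb of all exons TLN1 was 52.0 ± 1.76 times as abundant as TLN2 in PAR, 59.3 ± 3.81 times in KD and 43.3 ± 0.82 times in OE, so TLN1 made up 98.1%, 98.3% and 97.7% of the talin level.

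PXN (ENSG00000089159; GRCh38 chr12:120210439-120265771, minus strand) encodes paxillin, the adaptor that gathers kinases at adhesions. It had rlog values of 13.28, 13.25 and 13.27 in PAR, 13.56, 13.58 and 13.58 in KD and 13.19, 13.20 and 13.22 in OE. As with TLN1, KD was highest and OE lowest without overlap. The rise in KD was 0.31 (SE 0.014, adjusted p = 8.1e-19 from limma), or 124% of parental, and the OE difference was -0.065, which was -0.022 after removal of the 20-Mb medians. Other annotated genes share 27.2% of its exonic bases, among them PXN-AS1 on the opposite strand. The library kit does not mark the strand, so reads of PXN and PXN-AS1 cannot be told apart where they overlap. PXN-AS1 itself had mean rlog values of 7.36, 7.35 and 7.33 in PAR, KD and OE and no call in KD (adjusted p = 0.848).

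ILK (ENSG00000166333; GRCh38 chr11:6603708-6610874, plus strand) encodes the pseudokinase that kindlins bind. Its rlog values were 6.15, 6.23 and 6.12 in PAR, 6.23, 6.33 and 6.29 in KD and 6.21, 6.19 and 6.32 in OE. The 3 groups overlapped, and the KD difference of 0.11 (SE 0.048, 95% confidence interval 0.012 to 0.21) had an adjusted p of 0.0529 from limma. The adjusted p ranged from 0.0276 to 0.204 over 17 alternatives and passed 0.05 in 8 of them, among them the fits without PAR replicate 2 (0.0276), KD replicate 1 (0.0344) or OE replicate 3 (0.0453). ILK shares 78.5% of its exonic bases with genes on the opposite strand, TAF10 among them, and how reads in shared bases were counted is not given in the sources used here. Its level may therefore rest on a small part of the gene, and it is not compared with the level of other genes.

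In all, 2 members were called higher in KD than in PAR (TLN1 and PXN) and 2 lower (FERMT1 and FERMT3), where a call means an adjusted p under 0.05. Over all 22290 genes 53.7% were called in KD, 26.9% higher and 26.9% lower, so a count of 4 of 7 is close to the background. In 4 members all KD libraries lay beyond all PAR libraries, against 59.2% of all genes. In 5 members all OE libraries lay beyond all PAR libraries, FERMT1, FERMT3, TLN1 and PXN below and TLN2 above, against 43.2% of all genes, and nothing is read from this count because the members were chosen on that contrast. Among all genes 34.8% were called in OE, 16.9% higher and 18.0% lower. This balance turned with aligned library medians (4332 higher, 3541 lower) and with the 20-Mb medians removed (4792 higher, 3680 lower).

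**Figure D3:**
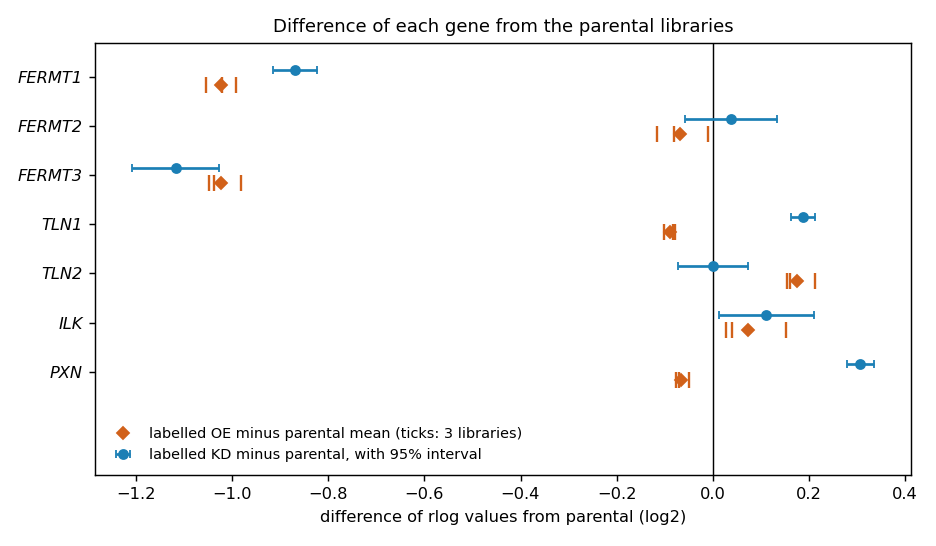
Difference of each member from the parental libraries in rlog units (x axis, log2); circles with bars are KD minus PAR with the 95% confidence interval, and diamonds are OE minus PAR with a tick for each of the 3 OE libraries and no test. FERMT1 and FERMT3 lie near -1 in both, PXN and TLN1 lie above 0 in KD and slightly below 0 in OE.

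Stretches of chromosome differed between the cell groups, so each member was set beside the genes within 5 Mb of its start site with a mean rlog of at least 8. Around FERMT1 the 37 such genes had a median difference of -0.11 in KD, with 73.0% of them lower, and of -0.19 in OE, with 83.8% lower. The 271 such genes of the whole of chromosome 20 were lower as well, with medians of -0.11 in KD (65.3% lower) and -0.099 in OE (76.4% lower), so the lower values are not particular to the 5-Mb window. Within 5 Mb the neighbours nearest to FERMT1 in value were JAG1, with -0.55 in KD and -1.02 in OE, and BMP2, with -0.50 and -0.66, both named after their values were seen. FERMT1 was the lowest of the window in KD, with 3 genes of the chromosome lower, and in OE JAG1 matched it. With the 20-Mb medians removed the difference of FERMT1 was -0.75 in KD, where it was still called, and -0.87 in OE. How much of the fall belongs to the chromosome was not tested.

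The 144 genes around FERMT3 had a median difference of 0.00087 in KD and -0.048 in OE, and none of them lay below FERMT3 in either. Around TLN1 the median of 54 genes was 0.014 in KD and -0.12 in OE, where 83.3% were lower, and TLN1 lay above the OE median. This contrasts with the whole of chromosome 9, where 407 genes had a KD median of -0.29 and 76.9% were lower. The neighbour that stood out was CA9, named after its values were seen, with differences of 1.84 in KD and 1.66 in OE at a start 0.058 Mb from that of TLN1. Around PXN the median of 69 genes was -0.060 in KD, and 3 of them had a higher difference than PXN. For FERMT2, TLN2 and ILK the KD medians of 48, 49 and 49 neighbours were -0.014, -0.0015 and -0.020.

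**Figure D4:**
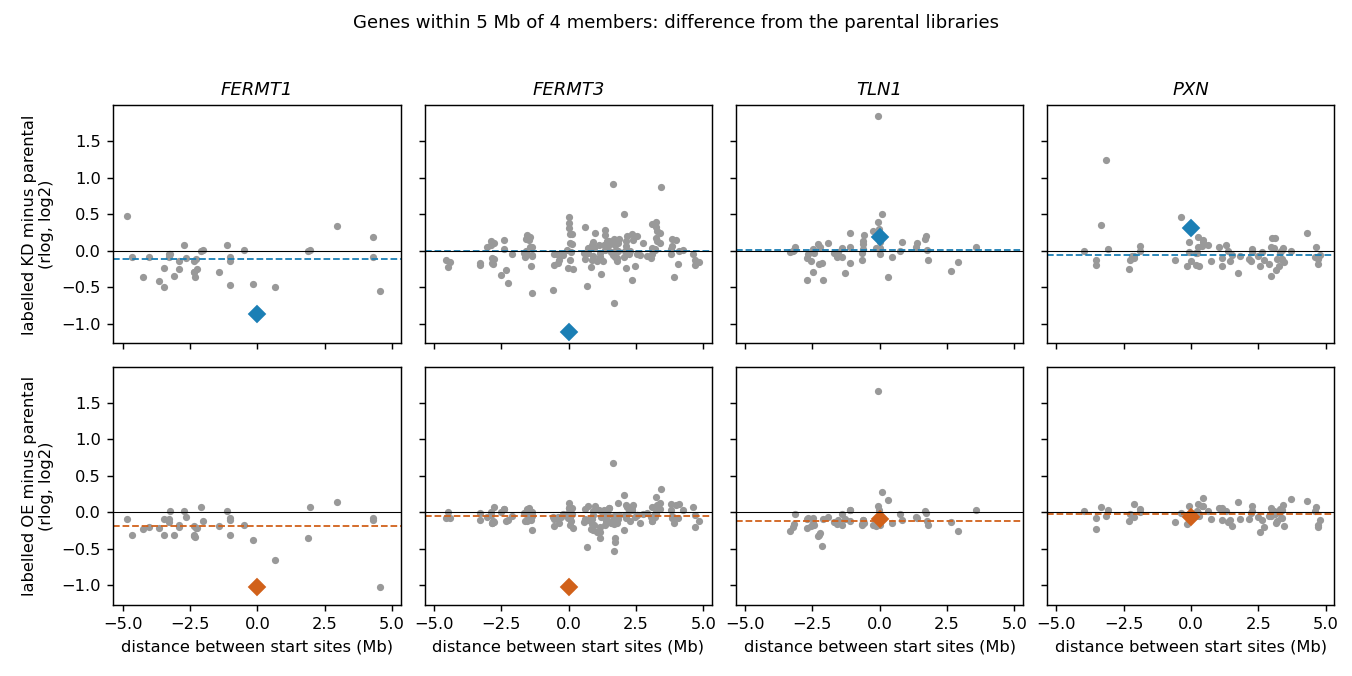
Difference from the parental libraries (y axis, rlog, log2) of genes within 5 Mb of FERMT1, FERMT3, TLN1 and PXN against the distance between start sites (x axis, Mb), for KD in the upper and OE in the lower row. Diamonds are the members, grey points are neighbours whose mean rlog was 8 or more, and dashed lines show their median; FERMT3 lies far below neighbours with a median near 0.

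Promoter sequences were searched for motifs next. FERMT1 had no entry, so what it shares with FERMT3, the other lowered kindlin, could not be seen. RefSeq promoters (GRCh38.p14, 300 bases around the start) matched 6 of the 7 members with 8 entries, all but FERMT1. They are shown for FERMT3, which has 2 entries, and for FERMT2, 5′ to 3′ on the strand of the gene. Capitals mark exact matches, on either strand, to any of 8 motifs: CACGTG (E-box), ACGTG (the hypoxia response core, contained in the E-box), GGAATG (TEAD), GAGGAA (the ETS class of PU.1), TGTGGT (RUNX), CCGGAA (ETS), GGGCGG (GC box) and TGACTCA (AP-1).
FERMT3 entry 1, chr11:64206471-64206770, plus strand: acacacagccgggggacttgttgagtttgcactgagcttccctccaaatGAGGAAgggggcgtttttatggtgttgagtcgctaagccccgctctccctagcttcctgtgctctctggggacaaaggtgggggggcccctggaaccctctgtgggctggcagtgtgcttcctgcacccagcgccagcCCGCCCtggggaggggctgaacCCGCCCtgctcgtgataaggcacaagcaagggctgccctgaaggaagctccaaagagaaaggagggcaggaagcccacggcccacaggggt
FERMT3 entry 2, chr11:64207456-64207755, plus strand: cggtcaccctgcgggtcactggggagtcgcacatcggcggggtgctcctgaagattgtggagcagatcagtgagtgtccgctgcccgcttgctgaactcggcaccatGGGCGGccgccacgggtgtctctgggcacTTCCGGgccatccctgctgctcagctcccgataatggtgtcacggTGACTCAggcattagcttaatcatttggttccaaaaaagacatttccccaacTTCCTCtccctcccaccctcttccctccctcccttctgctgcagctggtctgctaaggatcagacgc
FERMT2, chr14:52951001-52951300, minus strand: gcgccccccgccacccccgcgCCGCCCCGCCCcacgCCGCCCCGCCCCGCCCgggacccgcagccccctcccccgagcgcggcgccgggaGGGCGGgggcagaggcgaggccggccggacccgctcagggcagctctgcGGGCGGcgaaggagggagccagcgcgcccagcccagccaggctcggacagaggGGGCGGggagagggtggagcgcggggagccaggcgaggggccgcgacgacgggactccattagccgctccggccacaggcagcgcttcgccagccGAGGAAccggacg

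Both FERMT3 windows lie wholly in bases that the annotation counts as exons of FERMT3, and the FERMT2 window lies inside the gene with 50 exonic bases. The first FERMT3 window held 1 PU.1-class match and 2 GC boxes, and the second held 1 PU.1-class match, 1 ETS match, 1 GC box and 1 AP-1 match. The FERMT2 window was denser in GC boxes, with 8, and had 1 PU.1-class match. The PU.1-class motif occurs in 27.9% of all 35116 promoter entries, the GC box in 45.0%, the ETS motif in 17.2% and the AP-1 motif in 4.95%. The GC content was 62.7% and 60.0% in the FERMT3 windows and 82.0% in that of FERMT2, against a median of 58.7% over all entries.

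Among the other members, PXN had 8 GC boxes in its first entry and 1 ETS match there, and 1 TEAD match (present in 14.0% of all entries) and 2 PU.1-class matches in its second. Of the 6 members with an entry, only ILK had an E-box (in 7.26%), which holds the hypoxia response core on both strands (in 21.4%). ILK also had 1 ETS match and 2 GC boxes. TLN1 had 1 ETS match and 1 GC box, and TLN2 had 1 PU.1-class match. The RUNX motif, present in 13.1% of all entries, was not found in any window of the members. Such matches describe the letters in these windows and say nothing of binding.

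To place the pattern of the lowered kindlins among other genes, profiles over the 9 libraries were compared after each gene was centred on its parental mean. By the root mean square difference of rlog values, the 5 genes most like FERMT1 among 22194 with a symbol were UBBP4 (0.106), FERMT3 (0.147), AJAP1 (0.149), LINC01151 (0.151) and LYPD3 (0.156). Those most like FERMT3 were LINC01151 (0.0755), FERMT1 (0.147), KDR (0.174), COL6A3 (0.187) and SPTBN5 (0.205). FERMT1 and FERMT3 each ranked in place 2 for the other, a closeness that the choice of members favours because both were known to be low in OE. UBBP4 is a ubiquitin pseudogene, and reads of near-identical copies make its value uncertain. LINC01151 had differences of -1.10 in KD and -0.90 in OE, KDR of -1.32 and -0.84, AJAP1 of -0.88 and -0.77, and LYPD3 of -0.85 and -1.29.

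Because FERMT1 and FERMT3 are kindlins of epithelial and blood cells, markers of these cells were measured beside them. Of 16 epithelial markers 12 had values (CDH1, KRT19, CLDN3 and CLDN7 were not analysed here), with 1 called higher and 2 lower in KD and 1 higher and 3 lower in OE, beside 53.7% and 34.8% of all genes called. Their summed level on the scale of reads was 6102, 6125 and 6061 in PAR, 6081, 6239 and 6310 in KD and 5538, 5497 and 5569 in OE. The OE sum was lower and the KD sum was not, but most of it was KRT18, and single markers went different ways. KRT14 fell by 0.70 in KD (adjusted p = 1.29e-14) and fell by 0.49 in OE (adjusted p = 2.42e-10), KRT7 fell by 0.27 in KD (adjusted p = 3.79e-05), and CLDN4 fell by 0.57 in OE (adjusted p = 3.8e-16). KRT8 rose by 0.39 in KD (adjusted p = 7.07e-12) and by 0.40 in OE (adjusted p = 1.01e-11). KRT18 had the highest mean rlog values, 12.06, 12.10 and 11.97 in PAR, KD and OE, and ELF3 the lowest, at 0.90, 0.89 and 0.91. In PAR EPCAM lay at 2.59, ESRP1 at 2.67 and GRHL2 at 3.49, and none of these was called in KD or OE. The list was thus mixed, with 6 of the 12 under a mean rlog of 5.

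Of 16 blood markers 9 had values, of which 1 was called higher and 3 lower in KD and 1 higher and 3 lower in OE, beside 53.7% and 34.8% of all genes. CD3E, VAV1, GP9, PF4, HBG1 and TYROBP were among those not analysed here. The summed level was 5656, 5413 and 5499 in PAR, 3962, 3874 and 3860 in KD and 4206, 4348 and 4283 in OE. Most of this sum was RUNX1, which is not limited to blood cells. On the scale of reads RUNX1 had 5043, 3344 and 3759 in PAR, KD and OE, so the order of the sums is that of RUNX1. From a mean rlog of 12.30 in PAR it decreased by 0.59 in KD (adjusted p = 4.07e-22 from limma) and decreased by 0.42 in OE (adjusted p = 1.7e-17). PTPRC lay at 2.65, 2.63 and 2.66, SPI1 at 2.83, 2.81 and 2.85 and the globin gene HBA1 at 1.29, 1.25 and 1.27. Other markers had more reads: CORO1A, at 8.51 in PAR, rose by 0.32 in KD (adjusted p = 1.5e-09) and by 0.19 in OE (adjusted p = 4.38e-05). LYZ, at 5.99 in PAR, fell by 0.30 in KD (adjusted p = 2.1e-06) and fell by 0.19 in OE (adjusted p = 0.00209), and CD14, at 4.01, fell by 0.18 in KD (adjusted p = 0.000224) and fell by 0.13 in OE (adjusted p = 0.0122). No test was made of a part of these markers in the kindlin values.

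For completeness, 9 of 10 fibroblast markers had values (THY1 was not analysed here), with 1 called higher and 1 lower in KD and the same genes called in the opposite directions in OE, fewer than the 53.7% and 34.8% of all genes. FBN1 rose by 0.29 in KD (adjusted p = 6.21e-14) and fell by 0.052 in OE (adjusted p = 0.0451), and LUM fell by 0.18 in KD (adjusted p = 0.000892) and rose by 0.22 in OE (adjusted p = 0.000192). FBN1 had the highest mean rlog values of the list, at 11.52, 11.81 and 11.47 in PAR, KD and OE. POSTN had the lowest, at 1.09, 1.09 and 1.11. Of the 11 neuroblast markers 2 were called higher and 6 lower in KD, and 2 were called, both lower, in OE, against 53.7% and 34.8% of all genes.

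The complex of ILK with PINCH and parvin, which kindlins bind, was measured by 6 further genes. In KD 1 of them was called higher and 4 lower, with a median difference of -0.11 against -0.00051 over all genes, of which 26.9% were called higher and 26.9% lower. As 4 of the 6 had a mean rlog of at least 8, against 44.7% of all genes, nothing is read from these counts. LIMS1, which encodes PINCH-1, fell by 0.074 (adjusted p = 0.00644), RSU1, a partner of PINCH, by 0.16 (adjusted p = 7.44e-06) and PARVA, the widespread parvin, by 0.19 (adjusted p = 1.13e-08). LIMS2 fell by 0.27 (adjusted p = 1.44e-05), and PARVB rose by 0.27 (adjusted p = 4.28e-10). The calls of LIMS1 and RSU1 were lost with the 20-Mb medians removed (adjusted p = 0.133 and 0.405), which left 3 of 6 called.

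In OE PARVB rose by 0.16 (adjusted p = 1.41e-05), and PARVG, the parvin of blood cells, by 0.10 (adjusted p = 0.00719), at a mean rlog of 2.77 in PAR. PARVG shares 38.5% of its exonic bases with other genes, and its call was lost without OE replicate 2 (difference 0.084, adjusted p = 0.0507), which left 1 gene of the complex called. By limma 0 of the 6 were called lower, and 2 were lower at an unadjusted p under 0.05. PARVA was called lower among genes with a mean rlog of 5 or more (difference -0.056, adjusted p = 0.0326) and without PAR replicate 1 (-0.071, adjusted p = 0.0334), and LIMS1 among genes with a mean rlog of 5 or more (-0.050, adjusted p = 0.0493). The median difference was -0.015, against 0.00039 over all genes, of which 16.9% were called higher and 18.0% lower.

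Among genes that recruit talin to the membrane or hold it back, 20 of 23 had values (APBB1IP, KRIT1 and KANK4 were not analysed here). In KD 8 rose and 10 fell (median -0.038), and in OE 2 rose and 11 fell (median -0.084), more than the 53.7% and 34.8% of all genes called. As 17 of the 20 had a mean rlog of at least 8, against 44.7% of all genes, nothing is read from these counts. FLNA, a filamin that competes with talin for the beta tail, fell by 0.29 in KD (adjusted p = 1.59e-19) and by 0.25 in OE (adjusted p = 7.55e-17). DOK1, another competitor, rose by 0.49 in KD (adjusted p = 1.92e-15), while its OE difference was -0.020 (adjusted p = 0.659), and from -0.040 to -0.0080 with 1 library left out.

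The KANK proteins bind talin and surround adhesions. KANK1 rose by 0.25 in KD (adjusted p = 1.91e-14) and fell by 0.20 in OE (adjusted p = 1.32e-11), and KANK2 rose by 0.28 in KD (adjusted p = 6.62e-14) and fell by 0.16 in OE (adjusted p = 1.23e-07). With the 20-Mb medians removed the rise of KANK1 in KD was 0.086 and the OE difference of KANK2 was -0.10. RAPH1, which encodes the Rap1 effector lamellipodin, fell by 0.37 in KD (adjusted p = 1.87e-10) and by 0.26 in OE (adjusted p = 5e-07), with 76.3% of its exonic bases shared with other genes. RAPGEF1, an exchange factor for Rap1, fell by 0.28 in KD (adjusted p = 2.06e-12) and by 0.19 in OE (adjusted p = 3.23e-08). With the 20-Mb medians removed its KD difference was 0.068 (adjusted p = 0.00987) and its OE difference -0.090 (adjusted p = 0.00161). It lies on chromosome 9, where most genes were lower in KD.

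RAP2A, a small GTPase, rose by 0.25 in KD (adjusted p = 1.01e-11), or 0.15 with the 20-Mb medians removed. CAPN1, a calpain that cuts talin, rose by 0.24 in KD (adjusted p = 3.37e-11) and by 0.086 in OE (adjusted p = 0.00177). The OE difference of RAP2A was 0.056 (adjusted p = 0.0485). That call was lost without the variance trend, in the fit of the 2 groups alone, with the 20-Mb medians removed, and without PAR replicate 1 or 2, KD replicate 2 or OE replicate 1 or 2, with adjusted p-values of 0.0606 to 0.223.

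Of 39 adaptors and kinases of focal adhesions 37 had values (TNS4 and GIT1 were not analysed here). In KD 13 rose and 14 fell (median -0.024), and in OE 8 rose and 12 fell (median -0.040), against 53.7% and 34.8% of all genes called. This list too is of abundant genes, with 31 of 37 at a mean rlog of 8 or more, so nothing is read from the counts. LPXN, which encodes leupaxin, a relative of paxillin, fell in both, by 0.38 in KD (adjusted p = 4.04e-16) and by 0.56 in OE (adjusted p = 1.76e-19), from a mean rlog of 11.59. PXN itself was higher in KD. TGFB1I1, which encodes the further relative Hic-5, rose by 0.30 in KD (adjusted p = 1.27e-09).

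The tensin gene TNS2 had the largest rise of this list in KD, 0.75 (adjusted p = 2.88e-24), and rose by 0.24 in OE (adjusted p = 8.48e-11). TNS3 rose by 0.16 in KD (adjusted p = 4.37e-10) and by 0.22 in OE (adjusted p = 1.24e-12). LPP, a zyxin relative, rose by 0.37 in KD (adjusted p = 2.82e-17), or 0.14 with the 20-Mb medians removed. SORBS2, an adaptor of the vinexin family, fell by 0.057 in KD (adjusted p = 0.00507) and by 0.40 in OE (adjusted p = 1.15e-18). PDLIM7, a LIM-domain protein of actin fibres, fell by 0.28 in KD (adjusted p = 3.57e-12) and by 0.35 in OE (adjusted p = 7.77e-14).

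VCL, which encodes vinculin, the protein that strengthens the link of talin to actin, rose by 0.069 in KD (adjusted p = 0.00163) and by 0.13 in OE (adjusted p = 4.22e-07). PTK2, the gene of focal adhesion kinase, fell by 0.31 in KD (adjusted p = 6.06e-18), a difference of -0.082 with the 20-Mb medians removed, and its OE difference was 0.00014 (adjusted p = 0.998), which became 0.073 (adjusted p = 0.000499) with the 20-Mb medians removed. SRC fell by 0.29 in KD (adjusted p = 2.17e-12) and had a difference of -0.040 in OE (adjusted p = 0.215). With the 20-Mb medians removed the SRC differences were 0.037 (adjusted p = 0.191) and 0.073 (adjusted p = 0.0151), and without OE replicate 2 the OE difference was -0.068 (adjusted p = 0.034).

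The partners of kindlins and talins at the membrane are the integrin beta subunits, and all 8 had values, with 1 called higher and 4 lower in KD (median -0.024) and 1 higher and 2 lower in OE (median -0.0078), counts close to the 53.7% and 34.8% of all genes called. ITGB1 had the highest mean rlog values of the list, 13.96, 13.91 and 13.93 in PAR, KD and OE. It fell by 0.046 in KD (adjusted p = 0.00446), a call lost without the variance trend (adjusted p = 0.0719) and a difference of -0.088 with the 20-Mb medians removed, and its OE difference was -0.027 (adjusted p = 0.122), which passed the threshold after quantile normalization (adjusted p = 0.0103) and with the 20-Mb medians removed (adjusted p = 0.0114). ITGB8, which encodes a subunit that binds latent TGF-beta, fell by 0.41 in KD (adjusted p = 1.52e-19) and by 0.29 in OE (adjusted p = 4.26e-15).

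ITGB4, the subunit of hemidesmosomes, fell by 0.22 in KD (adjusted p = 0.00021) and rose by 0.29 in OE (adjusted p = 8.69e-06), at a mean rlog of 5.74 in PAR. ITGB5 rose by 0.099 in KD (adjusted p = 6.97e-07). ITGB2, the subunit of leukocyte integrins that kindlin-3 binds in blood cells, fell by 0.16 in KD (adjusted p = 0.00358) and by 0.15 in OE (adjusted p = 0.011), and both calls were lost with the 20-Mb medians removed (adjusted p = 0.163 and 0.110).

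**Figure D5:**
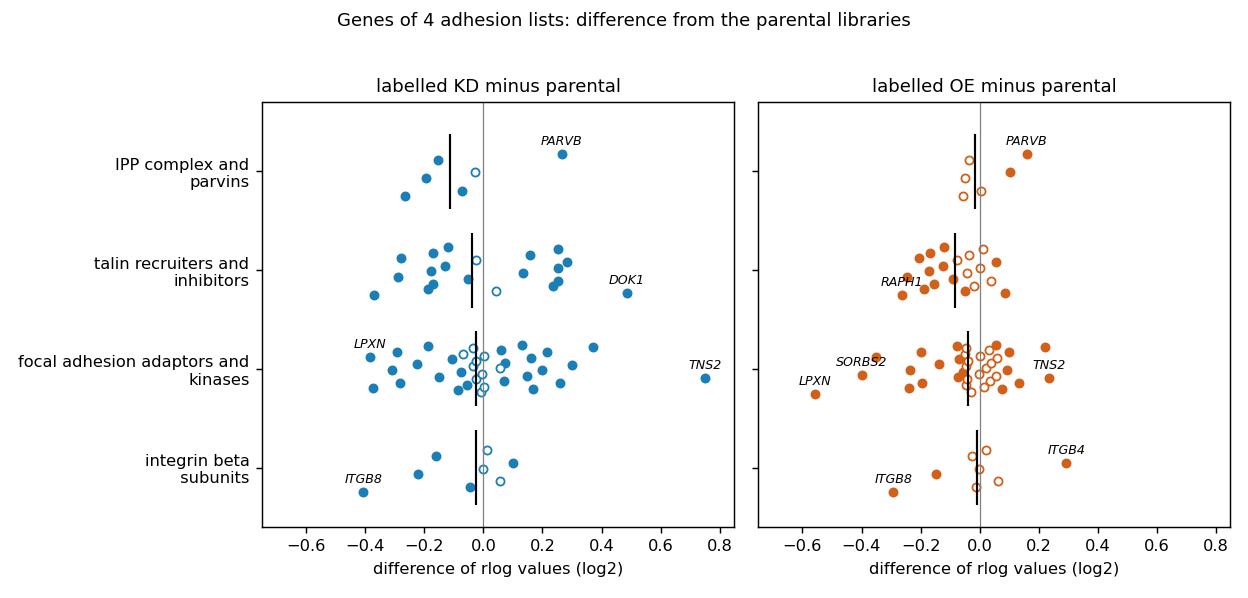
Differences from the parental libraries (x axis, rlog, log2) of the genes of 4 adhesion lists (y axis) in KD on the left and OE on the right. Filled points were called at an adjusted p under 0.05 by limma and open points were not. Vertical lines are medians of the whole lists, which lie between -0.11 and -0.0078. In the adaptor list 2 genes are not plotted, and most lists hold genes on both sides.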

How the data were processed

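RNA of 9 IMR-32 libraries (3 each of PAR, KD and OE) was sequenced by the authors. Their tools were cutadapt for trimming, HISAT2 for alignment (GRCh38) and featureCounts, from Subread, for reads per gene, and genes with few reads were dropped. Versions, the annotation release and the strand setting are not given in the sources used here. The deposited values are rlog values on a log2 scale, made by the authors with DESeq2, for 22290 genes. No counts were used here. Of these, 22195 were matched by identifier to symbols and to GENCODE release 44 positions. The members and lists were chosen with earlier results of these data known.

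KD and OE were compared with PAR in limma 3.58.1 (R 4.3.3), in 1 moderated linear model of all 9 libraries with a variance trend and no covariate, tested on simulated data. P-values were adjusted by Benjamini-Hochberg over 22290 genes and called under 0.05. The alternatives were no trend, robust estimation, only the 2 groups compared, a mean rlog of at least 5, aligned library medians, quantile normalization, removal of 20-Mb medians, a replicate block and each library left out. Levels per kb used 2 to the power rlog and the summed length of annotated exons.

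Named genes are the 7 members, TRAP1 and the 5 genes most alike to FERMT1 and to FERMT3. Up to 3 called genes per direction of each list and contrast with the largest difference were also named (some left out). ITGB1, VCL, PTK2, SRC, PARVA, LIMS1 and RSU1 were named in any case, as were the defining markers with the highest and lowest rlog. Further markers and 3 neighbours were named after their values were seen.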

Additional observations from a re-analysis of the deposited data

How the results depend on the processing

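The KD calls of FERMT1, FERMT3, TLN1, PXN and TRAP1 held in all 17 alternatives, with differences of -0.87 to -0.75 for FERMT1, -1.15 to -1.10 for FERMT3, 0.16 to 0.21 for TLN1 and 0.30 to 0.37 for PXN. FERMT2 and TLN2 were called in none. The causes of the changes below were not tested.

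The ILK difference in KD passed the threshold without the variance trend, with robust estimation, with only the 2 groups and with a mean rlog of at least 5 (0.11 in each), and with the 20-Mb medians removed (0.12). With 1 library left out it ranged from 0.088 to 0.14. The TLN2 difference in KD changed sign with aligned medians (-0.00052), quantile normalization (-0.0099) and the 20-Mb medians removed (-0.030), and ranged from -0.042 to 0.033 with 1 library left out. That of FERMT2 ranged from -0.0028 to 0.079, and that of TRAP1 in OE from -0.012 to 0.042.

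Removal of the 20-Mb medians gave OE differences of -0.87 for FERMT1, 0.018 for TLN1, -0.022 for PXN and 0.068 for TRAP1, where it made a call. It gave 0.068 for RAPGEF1 and 0.037 for SRC in KD and 0.073 for SRC in OE, and left 3 of 6 genes of the ILK complex called in KD. Quantile normalization gave OE differences of -0.10 for TLN1, -0.046 for PXN, 0.00088 for ITGB5 and -0.0083 for LIMS2. With 1 library left out, 1 to 3 genes of the ILK complex were called in OE, and the OE differences of ITGB5, LIMS2 and PTK2 ranged from -0.024 to 0.0026, -0.028 to 0.026 and -0.0048 to 0.0099. With MANE Select lengths all 15 shares of kindlins and talins moved by more than 1 SD, those of FERMT3 to about 2 times their value.

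Replicate numbers are shared by the groups, but the 9 pairs of libraries with the same number deviated from their group means with correlations of -0.12 to 0.268, so the numbers were not taken as a pairing. With a replicate block 12015 genes were called in KD and 7854 in OE, against 11980 and 7764, and no call of a member changed. Depth cannot be read from rlog values, so the precision of genes with few reads, FERMT3 among them, is known only from the spread between libraries.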
